A study of Mus musculus with 2 samples.

Results

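The genes described are those of the keratin, vimentin-type and lamin intermediate filaments: Krt8, Krt18, Krt7, Krt19, Vim, Nes, Des, Lmna and Lmnb1. They were taken as a list of 9 named genes, and a gene was measured where an array probe carried a RefSeq accession that names it. This gave 7 genes with 1 probe each, among 10137 named genes tested. Krt8 and Lmna had no probe named in this way and were not analysed here. RNA came from EB5 mouse embryonic stem (ES) cells that had been given Klf4 siRNA together with the plasmid pCAGEGFP-IP, grown without feeders on gelatin for 24 h and then kept in puromycin for another 24 h to enrich the transfected cells. It was labelled with Cy3 and compared on 2 arrays with a Cy5-labelled reference pooled in equal parts from 11 mouse cell lines (embryo, embryo fibroblast, kidney, liver, alveolar macrophage, B and T lymphocyte, mammary gland, myoblast, skin and testis). Both arrays belong to 1 group, siKlf4 ES cells (n = 2), and the samples held no ES cells free of the siRNA, so each value compares siKlf4 ES cells with that pool and none measures what the siRNA did. The labels do not say whether the arrays stand for separate cultures, so p-values measure only the spread between these arrays, which may be technical.

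Intermediate filaments are rope-like polymers that give cells and nuclei mechanical strength. Keratins are the filaments of epithelia and form only as pairs of a type I chain (Krt18 and Krt19 here) with a type II chain (Krt8 and Krt7); Krt8 with Krt18 is the earliest pair of the embryo and marks trophectoderm and simple epithelia. Vimentin (Vim) is the filament of fibroblasts and other mesenchymal cells, desmin (Des) that of muscle, and nestin (Nes) that of neural progenitors and myoblasts. Lamins line the inner nuclear membrane: Lmnb1 encodes the B-type lamin B1, made in nearly all cells, and Lmna the A-type lamins, which are low in ES cells and rise on differentiation.

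A ratio here is the log2 of the ES cell signal over the reference signal on one array, after background correction and loess normalisation, so that -1 means 2-fold lower in the ES cells. Each probe is 60 bases long, and the sequences that the measurements rest on are shown by their first 30 bases, 5′ to 3′, as the array files give them. They are shown because each gene has 1 probe, so every value below is that of this stretch of the transcript. No other gene spot on the array carried any of these 6 sequences in full.

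Krt18 probe: ggatggcagagtggtgtccgagactaatga
Krt7 probe: tcccgagcctggaagatagtctgaaactgc
Krt19 probe: ggtgataaaagtttactctaacccctccct
Vim probe: actgcagtttttcaggagcgcaagatagat
Nes probe: gtcagaggggtctgagtctgcatccttgga
Des probe: ccctggctattggcaggtgtcaaagctggc

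The siKlf4 ES cells had far less Krt18 and Vim RNA than the reference pool, moderately less Krt7 and Krt19, nearly equal Nes at low signal, and more Lmnb1; Des was not detectable in the ES cells. At an adjusted p under 0.05, the same sign on both arrays and at least a 2-fold difference, 4 of the 7 genes were lower (5.19% of 21028 probes tested were) and 0 were higher (5.08% were). By the adjusted p alone, without the 2-fold limit but with the same sign on both arrays, 6 were lower, Des among them. Over all probes 31.4% were lower. By that rule 1 was higher, against 31.6% of all probes. That looser rule says little about small ratios. Of the 162 negative control spots, which match no mouse gene, 115 also had an adjusted p under 0.05 when fitted with the gene probes. The same sign was not required of these spots. Their largest absolute log2 ratio was 0.52 and 0 reached 2-fold. Below, the range of these spots, or negative control range, means ratios within 0.52 of 0 in either direction. The median log2 ratio over the 7 genes was -1.20, beside -0.01 over all probes.

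**Figure D1:**
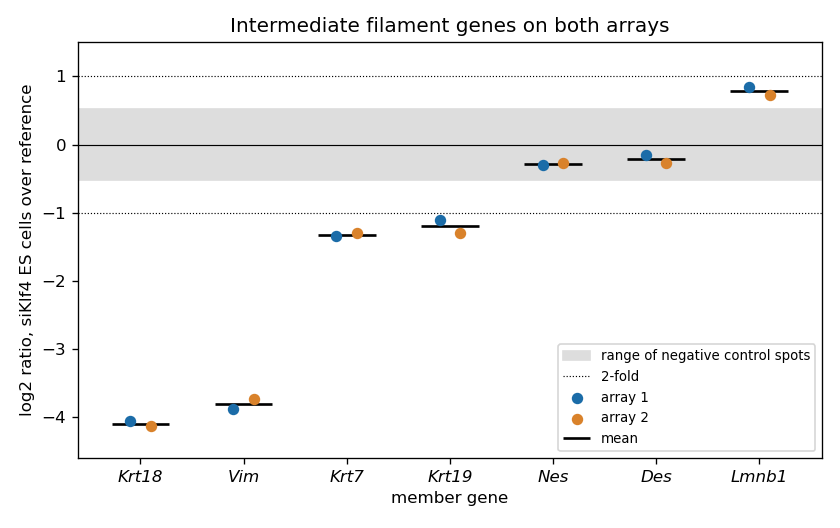
Log2 ratio of siKlf4 ES cells over the reference pool (y axis) for the 7 measured filament genes (x axis). Each array has 1 point and a bar marks the mean of both. The grey band spans plus and minus the largest absolute log2 ratio of a negative control spot (0.52), and dotted lines mark 2-fold. Krt18 and Vim lie near -4, Krt7 and Krt19 between -1 and -2, Nes and Des inside the grey band, and Lmnb1 above it at 0.79.

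For Cy3 (ES cells) the median gene probe lay 308 and 355 intensity units above local background on arrays 1 and 2, and for Cy5 (reference) 246 and 264. As a limit of detection, the level that 95% of negative control spots stayed under was used: 155 and 178 units for Cy3, 40.9 and 58.4 for Cy5. Klf4, the target of the siRNA, had log2 ratios of 0.43 and 0.59 against the pool, which does not check the knockdown for want of cells without it. Of 9 measured ES cell markers, 7 were at least 2-fold higher, against 5.08% of all probes. Among them were Pou5f1 at 2.86 ± 0.053 and Sox2 at 5.69 ± 0.14 (mean log2 ratio ± SD, n = 2). Without background correction these stood at 1.76 and 4.45. The markers that did not reach 2-fold were Esrrb (0.27, above the limit in neither channel) and Fgf4 (0.003).

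Krt18 encodes keratin 18, the type I partner of keratin 8. Its log2 ratios were -4.05 on array 1 and -4.14 on array 2. The mean was -4.09 ± 0.061 (SD, n = 2), so that the reference exceeded the ES cells 17.1-fold (limma, adjusted p = 4.71e-07). In the reference channel the spot lay 19468 and 19458 units above background, and in the ES channel 1112 and 1252. Both ES values were several times the limit of detection, so Krt18 RNA was low relative to the pool and still measured in the ES cells. Counted from the lowest ratio, the gene ranked 19 of 21028 probes.

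Vim encodes vimentin. Its log2 ratios were -3.88 and -3.73, with a mean of -3.81 ± 0.10 (SD, n = 2), or 14.0-fold higher in the reference (limma, adjusted p = 5.89e-07), at rank 39 from the lowest. The ES spot lay 3904 and 4865 units above background, far over the limit. The reference spot, at 59637 and 57306 units, was close to the top of the scanner's range: 1 of 63 pixels was saturated on array 1 and 0 of 60 on array 2, and the scanner software did not mark the spot as saturated on either. The part of that ceiling in the ratio was not tested.

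Krt18 and Vim differed from each other by less than from any other member. The ratio of Krt18 was 0.29 lower on average, by 0.17 on array 1 and 0.40 on array 2, which is more than the larger of their SDs, 0.10. Without background correction they stood at -3.64 and -3.63, so their order was not resolved in that setting. The bright Vim reference spot limits the order as well, to an extent that was not tested. From Vim to the next gene, Krt7, the ratio rose by 2.49, or 2.53 and 2.44 on single arrays. These genes therefore form a pair well apart from the rest on both arrays.

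Since Krt18 and Vim shared so low a ratio, their promoters are given from RefSeq (build GRCm38.p6), from 250 bases before to 50 after the transcript start, in the direction of transcription. They were searched on both strands for the GC box GGGCGG, the CACCC box CACCC (the element that Krüppel-like factors such as Klf4 are known for), the TATA box TATAAA and the AP-1 site TGANTCA. Matches are in capitals, and none of them overlap.

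Krt18 promoter, chr15:102027966-102028265, plus strand: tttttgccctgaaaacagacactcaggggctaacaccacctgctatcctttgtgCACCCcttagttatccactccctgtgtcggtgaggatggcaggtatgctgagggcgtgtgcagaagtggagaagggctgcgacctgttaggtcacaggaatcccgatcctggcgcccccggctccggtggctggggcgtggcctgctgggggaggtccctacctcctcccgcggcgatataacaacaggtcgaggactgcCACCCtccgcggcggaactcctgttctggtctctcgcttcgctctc
Vim promoter, chr2:13574061-13574360, plus strand: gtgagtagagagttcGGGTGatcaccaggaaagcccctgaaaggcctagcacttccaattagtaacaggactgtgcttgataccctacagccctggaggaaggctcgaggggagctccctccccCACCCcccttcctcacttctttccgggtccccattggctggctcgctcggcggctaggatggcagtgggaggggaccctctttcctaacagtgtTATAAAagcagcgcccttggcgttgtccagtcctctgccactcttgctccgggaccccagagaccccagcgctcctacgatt

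Each of these windows held 2 CACCC boxes, and 57.5% of 32851 promoters of this length hold at least 1. The box was not particular to these genes: the promoters of Krt7, Nes and Des, searched in the same way, held 1, 2 and 2. Vim held 1 TATA box, beginning 32 bases before the start (13.6% of promoters hold one), and Krt18 held 0 of these letters. Neither held the GC box, present in 35.7% of promoters, or the AP-1 site, present in 7.81%. These matches are letters in a window and no measure of binding.

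Krt7 and Krt19, keratins of simple ducts and of other epithelia, were lower in the ES cells by a smaller margin. Krt7, a type II chain, had log2 ratios of -1.35 and -1.29, a mean of -1.32 ± 0.040 (SD, n = 2) or 2.50-fold higher in the reference (limma, adjusted p = 4.58e-06). Its signals were 437 and 497 units for the ES cells and 1144 and 1099 units for the reference. Krt19, the shortest keratin, lacking a tail domain, had ratios of -1.10 and -1.29, with a mean of -1.20 ± 0.13, or 2.29-fold higher in the reference (adjusted p = 2.14e-05). Its signals were 1113 and 1234 units for the ES cells and 2667 and 2866 units for the reference. All these signals were above the limit in both channels. The genes differed by 0.12 in mean log2 ratio, which is less than the SD of Krt19, and on array 2 by less than 0.01, so their order was not resolved. Neither reached 2-fold without background correction, where Krt7 stood at -0.82 and Krt19 at -0.94.

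Nes encodes nestin, a long filament protein that assembles with vimentin. It had ratios of -0.30 and -0.27 and a mean of -0.29 ± 0.021 (SD, n = 2; limma, adjusted p = 0.0013), inside the range of the negative control spots. Its ES signals of 170 and 201 units lay just over the limit, and its reference signals were 104 and 125 units. Des, the muscle filament gene, had ratios of -0.16 and -0.26, a mean of -0.21 ± 0.077 (SD, n = 2; limma, adjusted p = 0.00884), also inside that range. It did not pass with median centring in place of loess (limma, adjusted p = 0.982) or without background correction (limma, adjusted p = 0.0944). The Des spot gave 132 and 130 units in the ES channel, below the limit on both arrays, and 47.8 and 49.3 units in the reference, above it on array 1 only. Des RNA was therefore not detectable in the ES cells at this signal, and no fold is given. Nes and Des cannot be ordered at these signals.

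Lmnb1, lamin B1, was the one member higher in the ES cells. Its ratios were 0.85 and 0.73, with a mean of 0.79 ± 0.085 (SD, n = 2), or 1.73-fold higher than the pool (limma, adjusted p = 4.89e-05). This was beyond every negative control spot but under 2-fold. Signals of 376 and 438 units for the ES cells and 151 and 186 units for the reference were above the limit on both arrays.

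**Figure D2:**
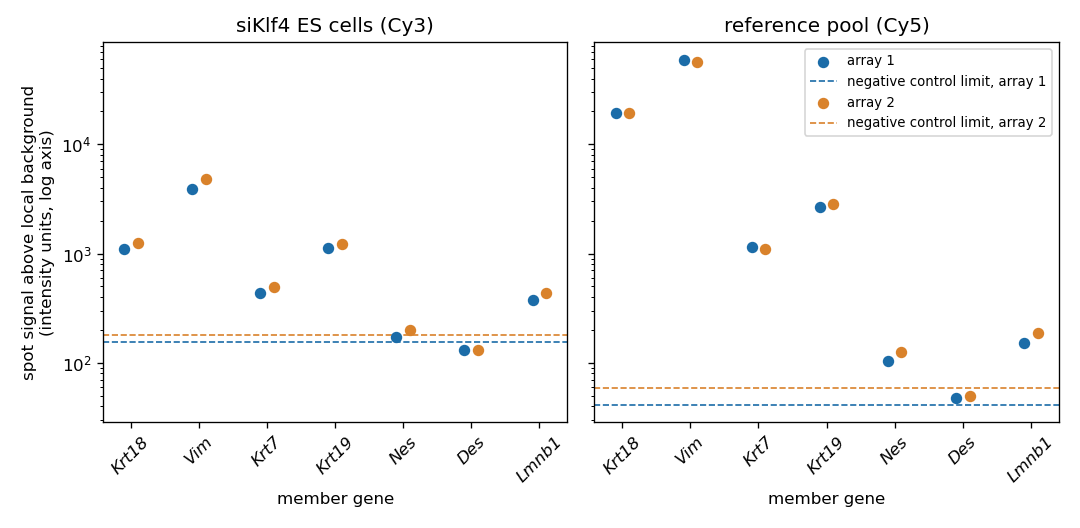
Spot signal above local background (log axis, intensity units) of the 7 filament genes in the ES channel (left) and the reference channel (right), 1 point per array, with the negative control limit of each array dashed. The channels have their own scales; the Vim reference spot is brightest at 59637 and 57306 units, and Des lies below both dashed lines in the ES channel.

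The spread between arrays was small beside the larger differences. The absolute difference between the arrays in a member's log2 ratio ran from 0.03 for Nes to 0.19 for Krt19, beside a median of 0.06 and a 95th percentile of 0.22 over all probes. After the channels were also scaled between arrays, the ES level of Krt18 was 10.16 ± 0.098 and its reference level 14.25 ± 0.037 (log2 intensity, SD, n = 2). For Vim the ES level was 12.05 ± 0.029 and the reference level 15.86 ± 0.076. In both genes the channels lay apart by many times these SDs. This scaling leaves the ratio of each array unchanged, so the gap restates the log2 ratios given above and is no further evidence.

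The processing moved each ratio to a different extent. Over 8 other settings Krt18 stood between -4.19 and -3.64 and Vim between -3.85 and -3.63. Some of the 8 (an intensity trend in eBayes, a filter on dim probes and the mean over a gene's probes) cannot move the ratio of a gene with 1 probe. Krt7 ran from -1.53 to -0.82, Krt19 from -1.40 to -0.94 and Lmnb1 from 0.33, without background correction, to 0.90. Nes ran from -0.38 to -0.08, and Des, over 7 settings, from -0.37 to a value of -0.0016 with median centring in place of loess.

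**Figure D3:**
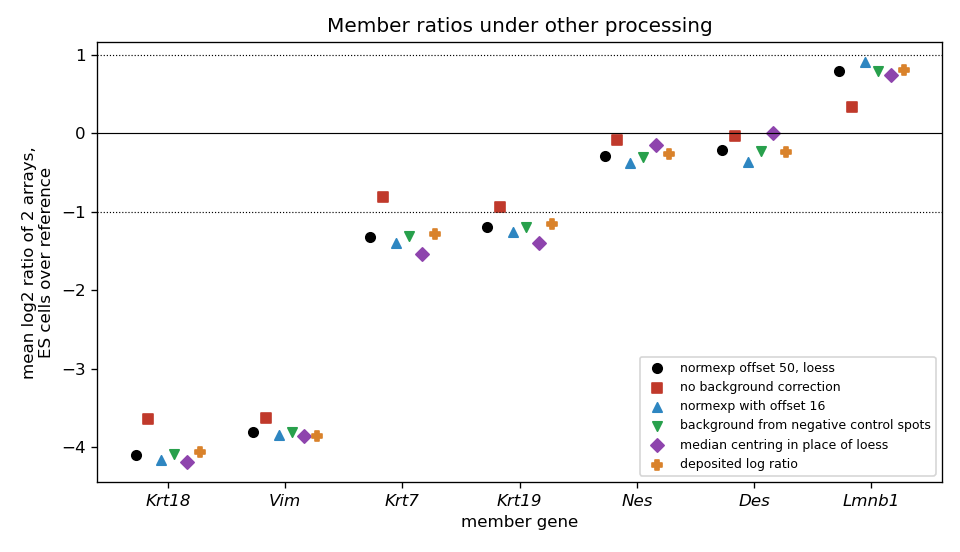
Mean log2 ratio of the 2 arrays (y axis) for each filament gene (x axis) under the setting used in the text (black circles) and 5 other ways of correcting and scaling the signals; dotted lines mark 2-fold. Krt18 and Vim stay below -3.6 in each setting drawn, while Krt7 and Krt19 cross -1 without background correction.

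The other intermediate filament genes measured did not show the low ratios of Krt18 and Vim. Of 59 such genes listed, 22 were measured. In either direction 0 reached 2-fold, close to the shares over all probes (5.19% lower and 5.08% higher). Their median was 0.06, with a range of -0.19 to 0.82, and 20 lay inside the negative control range. The ES signal of 7 was not above the limit on either array, and 5 were above the limit in neither channel. By the adjusted p alone, 9 were higher, 2 lower and 11 did not pass, beside 31.6% higher and 31.4% lower over all probes. The genes named from this list were picked with their values in view. The highest was Lmnb2, which encodes the other B-type lamin, at 0.84 and 0.79 (mean 0.82 ± 0.034, SD, n = 2; limma, adjusted p = 2.18e-05), next to the value of Lmnb1. Krt17, a keratin of basal and injured epithelium, stood at 0.68 ± 0.047, but at 0.20 without background correction. Basal-layer keratins Krt5 (0.07, adjusted p = 0.207; -0.14 with median centring) and Krt14 (-0.14; 0.05 with median centring) lay inside the negative control range.

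Keratin genes lie in a type I cluster on chromosome 11 and a type II cluster on chromosome 15, with Krt18 as the one type I gene in the latter. Of the 11 measured keratins on chromosome 11, Krt19 alone was 2-fold lower or more, and the median of them all was 0.03. Of these, 3 were above the limit in neither channel. Of the 9 on chromosome 15, Krt18 and Krt7 were lower, with a median of 0.02 over them all, and 1 was above the limit in neither channel. Over all probes 5.19% were at least 2-fold lower. The gene after Krt18 in the RefSeq order, Eif4b, a translation initiation factor gene, stood at -0.17 ± 0.042. Next to Vim, Trdmt1 stood at -0.15 ± 0.032 and St8sia6 at 0.56 ± 0.055, so none of these neighbours reached 2-fold.

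Genes that tie filaments to junctions and to other structures went both ways. Of 22 linker and desmosome genes listed, 13 were measured. By at least 2-fold, 2 were lower and 0 higher, beside 5.19% and 5.08% of all probes. The median was 0.08, and -0.21 over the 11 above the limit in at least 1 channel. By the adjusted p alone 6 were higher, 6 lower and 1 did not pass, beside 31.6% higher and 31.4% lower over all probes. Perp, a desmosomal membrane protein, was lower at -1.26 ± 0.16 (SD, n = 2; limma, adjusted p = 2.72e-05) and Cryab, a small heat shock protein that binds desmin and vimentin filaments, at -1.07 ± 0.091 (adjusted p = 1.69e-05). Without background correction they stood at -0.86 and -0.45 and neither reached 2-fold. The plakophilins, plaque proteins of desmosomes, differed among themselves, with Pkp2 at 0.78 ± 0.12 and Pkp1 at -0.86 ± 0.063, both under 2-fold. Without background correction these stood at 0.34 and -0.34. Pkp3 stood at 0.25, inside the negative control range. Plakoglobin (Jup) stood at 0.14.

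Among the lamina partners and lamin-processing enzymes, 12 of 22 listed genes were measured, with a median of 0.10. By at least 2-fold, 1 was higher and 0 lower, beside 5.08% and 5.19% of all probes. By the adjusted p alone 5 were higher, 2 lower and 5 did not pass, beside 31.6% higher and 31.4% lower over all probes. Emd, which encodes emerin of the inner nuclear membrane, had ratios of 1.31 and 1.36 (mean 1.33 ± 0.037, SD, n = 2; limma, adjusted p = 4.38e-06) and stood between 1.14 and 1.37 in the 8 other settings. Fntb and Fnta, the subunits of the farnesyltransferase that lipidates prelamin A and B-type lamins, stood at 0.93 ± 0.022 and 0.66 ± 0.059, under 2-fold and beyond every negative control spot. Zmpste24, the protease that matures prelamin A, stood at -0.08 (adjusted p = 0.145). The lamin B receptor gene Lbr stood at 0.16, or -0.06 with median centring.

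**Figure D4:**
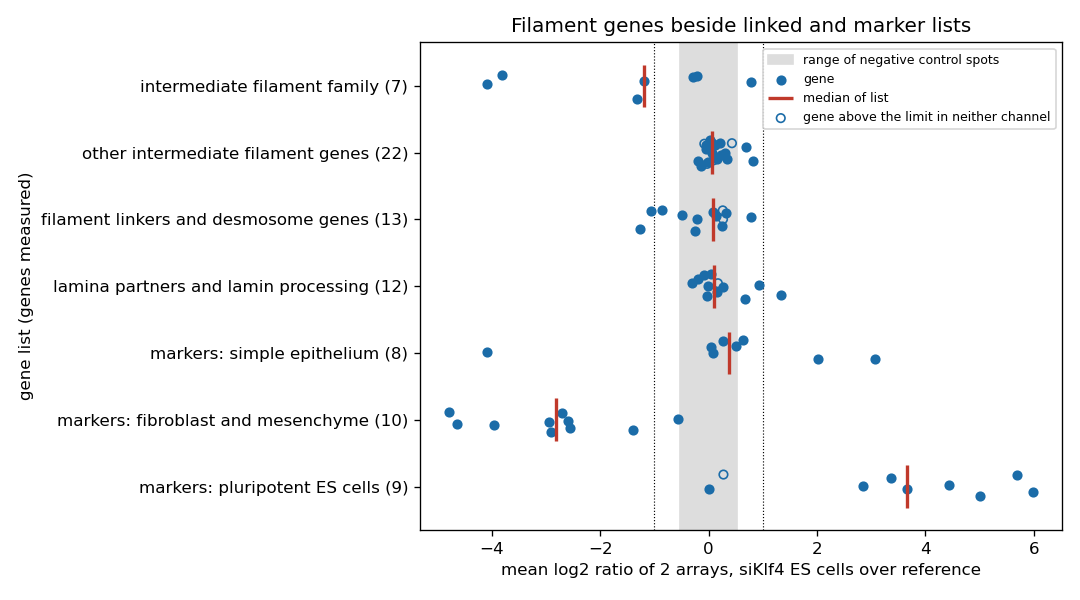
Mean log2 ratio of the 2 arrays (x axis) for each gene of the filament family, of the linked lists and of 3 marker lists (y axis, genes measured in brackets). Red bars are list medians, and open circles are genes above the limit in neither channel. The grey band spans plus and minus the largest absolute log2 ratio of a negative control spot. The filament family has its median at -1.20 while the other filament genes centre on 0.06; Krt18 appears in the epithelial list as well, as its lowest point.

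The filament genes were set beside markers of the cell types they are known from. Of 10 measured fibroblast and mesenchyme markers, 9 were 2-fold lower or more (5.19% of all probes were) and 0 higher (5.08% were). These markers ranged from -4.78 to -0.56. Their median was -2.81, and -1.68 without background correction. The ES signal of 2 of them was not above the limit, and with these at their bound the median stayed at -2.81. Their summed ES signals were 3591 and 4238 units against 34666 and 34379 in the reference. Vim, at -3.81, lay inside this range. Simple epithelial markers did not follow Krt18 as a set. Of 8 measured, 2 were higher and 1 lower by at least 2-fold, beside 5.08% and 5.19% of all probes. The lower one was Krt18 itself. The other 5 did not reach 2-fold, and 4 of the 8 lay inside the negative control range. Krt7 (-1.32) and Krt19 (-1.20), which are not in this list, were lower as Krt18 was. Cdh1, which encodes E-cadherin, stood at 3.06 ± 0.011 (SD, n = 2), or 2.13 without background correction, and Cldn4, a tight junction claudin, at 2.03 ± 0.050, or 1.21 without that correction. The summed signals of the 8 were 7316 and 8805 units for the ES cells and 22227 and 22441 units for the reference, most of the latter from Krt18.

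Markers of trophectoderm, a tissue that makes Krt18 and Krt7, were on both sides, with a median of 0.10. Of 8 measured, 1 was 2-fold higher or more (Tfap2c, 3.26) and 1 lower (Gata3, -1.37), beside 5.08% and 5.19% of all probes. Over the 6 above the limit in at least 1 channel that median was -0.07. Primitive endoderm markers were lower in 3 of 8 cases (Afp, Pdgfra and Sparc) and higher in 1 (Lama1), beside 5.19% and 5.08% of all probes. With no background correction, 2 were lower and 0 higher. Sparc is also counted among the fibroblast and mesenchyme markers, and the ES signal of Afp was not above the limit on either array. All 8 neural progenitor markers, of the lineage that Nes is known from, lay inside the negative control range, between -0.44 and 0.16. Of 10 muscle markers, Des included, 1 was 2-fold lower or more (Acta1, -1.38), beside 5.19% of all probes, and the median was -0.32. Without background correction Tfap2c stood at 1.49, Gata3 at -0.60 and Acta1 at -0.66. In bulk RNA fewer cells of a type and less RNA per cell cannot be told apart, and the part of any of these cell types in the filament ratios was not tested.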

How the data were processed

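RNA of siKlf4 EB5 ES cells (Cy3) was compared with a reference pool (Cy5) on 2 arrays. The authors' scanner files, made with Agilent Feature Extraction A.7.5.1 per the file headers, hold deposited intensity values as scanned and after background subtraction and LOWESS, and a log10 ratio of red over green. How the log10 values of the deposited series table were made is not stated in the labels or headers; they served only to check differences between arrays. Scanned signals were corrected by normexp (offset 50, local background median) and loess, controls at weight 0, with limma 3.58.1 in R 4.3.3. Outlier spots cost 24 of 21052 gene probes. Mean log2 ratios of ES cells over reference were tested against 0 by lmFit and eBayes (degrees of freedom: 1 residual, 4.24 prior), p-values being adjusted by Benjamini-Hochberg over 21028 probes, and the test was run on simulated data first. Both arrays have the same dyes, so any dye bias remains. Scanner flags put all ES-channel negative controls well above background, so a limit from these spots was used instead. Unversioned RefSeq accessions named 10422 probes; the brightest probe stood for a gene. All members were named, and of each linked list the genes at least 2-fold changed; others were picked with their values in view. The members and lists were chosen with earlier results of these data known. The number of arrays limits the precision.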

Additional observations from a re-analysis of the deposited data

How the results depend on the processing

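Over 8 other settings and the removal of either array, each of the 7 filament genes kept its sign in every setting that gave it a value. Among these, the intensity trend in eBayes, the filter on dim probes and the mean over a gene's probes could not alter a member's ratio. Only the settings that changed background correction or scaling, and the removal of an array, put the signs to a check. The counts of filament genes at least 2-fold lower (4) and higher (0) were kept except without background correction, where 2 were lower, Krt7 (-0.82) and Krt19 (-0.94) no longer reaching 2-fold. In that setting 0 linked genes were at least 2-fold lower instead of 2, and over all probes 510 were higher and 467 lower instead of 1068 and 1092. The cause was not tested. The median over the filament genes was -0.82 without background correction and -1.40 with median centring. Without replicate 1 or 2 that median was -1.29 and -1.10, values with no test since 1 array was left, and the counts stayed at 4 and 0. Between-array differences kept within 1 SD except for Krt7 with median centring (0.12 instead of 0.06). The filter on dim probes left out Des. No paired analysis was possible because there is only 1 group, so the replicate numbers match no samples of another group. Low signal over background limits Des and Nes.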
